A study of Rattus norvegicus with 15 samples.

Results

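The 33 genes described here are known targets or partners of ATF4, a transcription factor of the amino acid and stress response. They were chosen by name for their roles in serine and asparagine synthesis, amino acid transport and the integrated stress response, and they were selected on measured values as well, because earlier results of these same libraries were known when the list was drawn up. Which comparison those values came from is not recorded. Counts over the list are therefore a description, set beside the same share over all genes. All 33 names were found in the count table, on 34 of its 33717 rows, since Nupr1 stands on 2 rows. Of the 33, 32 passed the filter on low counts and were tested among 14147 genes. Cbs, which makes cystathionine, was not tested, at 0 to 6 counts per library, and neither was the second Nupr1 row, at 0 to 2 counts.

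Gene expression had been measured by RNA-seq in primary chondrocytes, cartilage cells taken from the rat temporomandibular joint (TMJ, the jaw joint). There were 15 libraries in 5 groups of 3. The control group is labelled nc for both genotype and treatment and was taken to be without siRNA, since a separate group is labelled si-nc, here called control siRNA. An siRNA is a short RNA that triggers degradation of a matching transcript. A stress group received mechanical stress without siRNA, a Ddx5 siRNA group received an siRNA against the RNA helicase Ddx5, and the last group received the Ddx5 siRNA and mechanical stress. No group with control siRNA and stress is among the samples. Strain, age, siRNA dose and stress protocol are not in the labels. Nor do the labels name separate animals or cultures for replicates, so a p-value here reflects only how much these libraries vary, and that variation may be technical.

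In the integrated stress response, kinases that sense amino acid shortage, endoplasmic reticulum (ER) stress, heme shortage or double-stranded RNA phosphorylate the initiation factor eIF2. Protein synthesis as a whole then slows while translation of the Atf4 transcript increases, so that ATF4 protein can change without a matching change in Atf4 RNA. ATF4 binds composite elements, called CARE or amino acid response elements, together with C/EBP proteins, and it turns on enzymes that make amino acids, transporters that import them, tRNA synthetases, and effectors such as Ddit3 (CHOP) and Trib3. Cartilage cells secrete large amounts of collagen, a protein rich in glycine and proline, which is why the synthesis of these amino acids is of interest in this tissue.

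The letters of the CARE core, TGATGNAA, were searched on both strands of RefSeq promoters of the rat assembly GRCr8, from 250 bases before to 50 bases after each annotated start. Of the 33 members, 29 had a promoter in that table, and 7 of these (24.1%) held the core, against 3.98% of all 33469 promoters. The share of members counts genes and the other counts promoters, of which the 29 genes had 30. The CRE palindrome TGACGTCA, another element of this factor family, was in 0 of the 29, against 1.83% of all promoters. The 7 were Chac1, Got1, Nupr1, Pycr1, Slc1a4, Slc7a1 and Trib3. A match is a run of letters and not a binding site, and no binding data were used here. Windows around the core are shown for 6 of them, because they are the closest these data come to the ATF4 element, with the 8 letters of the core in capitals as read 5′ to 3′ on the gene's own strand:
Chac1 (chr3:126795944-126795991, plus strand): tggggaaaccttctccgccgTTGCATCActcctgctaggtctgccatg
Got1 (chr1:252330011-252330058, minus strand): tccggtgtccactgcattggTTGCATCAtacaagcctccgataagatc
Pycr1 (chr10:106420916-106420963, minus strand): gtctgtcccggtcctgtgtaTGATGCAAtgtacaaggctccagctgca
Slc1a4 (chr14:98761770-98761812, minus strand): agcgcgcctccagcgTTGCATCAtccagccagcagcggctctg
Slc7a1 (chr12:11664438-11664485, plus strand): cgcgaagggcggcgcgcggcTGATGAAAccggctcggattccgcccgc
Trib3 (chr3:161275527-161275574, minus strand): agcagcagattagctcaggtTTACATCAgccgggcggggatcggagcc
The core began 167 bases before the start in Chac1 and Got1, 131 in Pycr1, 235 in Slc1a4, 30 in Slc7a1 and 21 in Trib3. In Chac1, Got1, Slc1a4 and Trib3 it lay on the opposite strand, so the capitals there read as the reverse complement. Of members with the same 8 letters, Pycr1 and Chac1 were called higher with the control siRNA, as described below. Got1, Slc1a4 and Nupr1 were not. Nupr1, whose window is not shown, had a log2 fold change of 1.56 (edgeR adjusted p = 0.45). Chac1 and Slc1a4 lay on either side of the threshold (edgeR adjusted p = 0.039 and 0.064), and DESeq2 called both higher. Got1 had a log2 fold change of 0.10 and overlapping groups.

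The libraries held 14309005 to 16219775 counts. Ddx5 itself measured 485 to 545 CPM (the count scaled to a common library total) in the control, 359.8 to 398 with the control siRNA and 207 to 252 with the Ddx5 siRNA, and it fell by 0.77 on the log2 scale against the control siRNA (SE 0.13, edgeR adjusted p = 0.023). Of 15 cartilage marker genes, Matn1 and Lect1 were at 0 in the control, Col2a1, the main cartilage collagen, measured only 1.48 to 4.49 CPM, and Acan, the large cartilage proteoglycan, measured 109 to 219 CPM. None of 10 fibroblast genes was at 0. Leukocyte, endothelial, muscle and Schwann cell or neuron lists summed to at most 42.6, 1.59, 44.8 and 70.7 CPM in any library. Replicate 1 of both Ddx5 siRNA groups stood apart from the other replicates of its group (Pearson r of log2 CPM 0.966 to 0.977, against 0.990 between the other 2), and replicate 3 of the control and of the stress group was the lowest of its group in Phgdh, Psat1 and Psph. In bulk RNA, fewer cells of a type and less RNA per cell cannot be told apart.

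**Figure D1:**
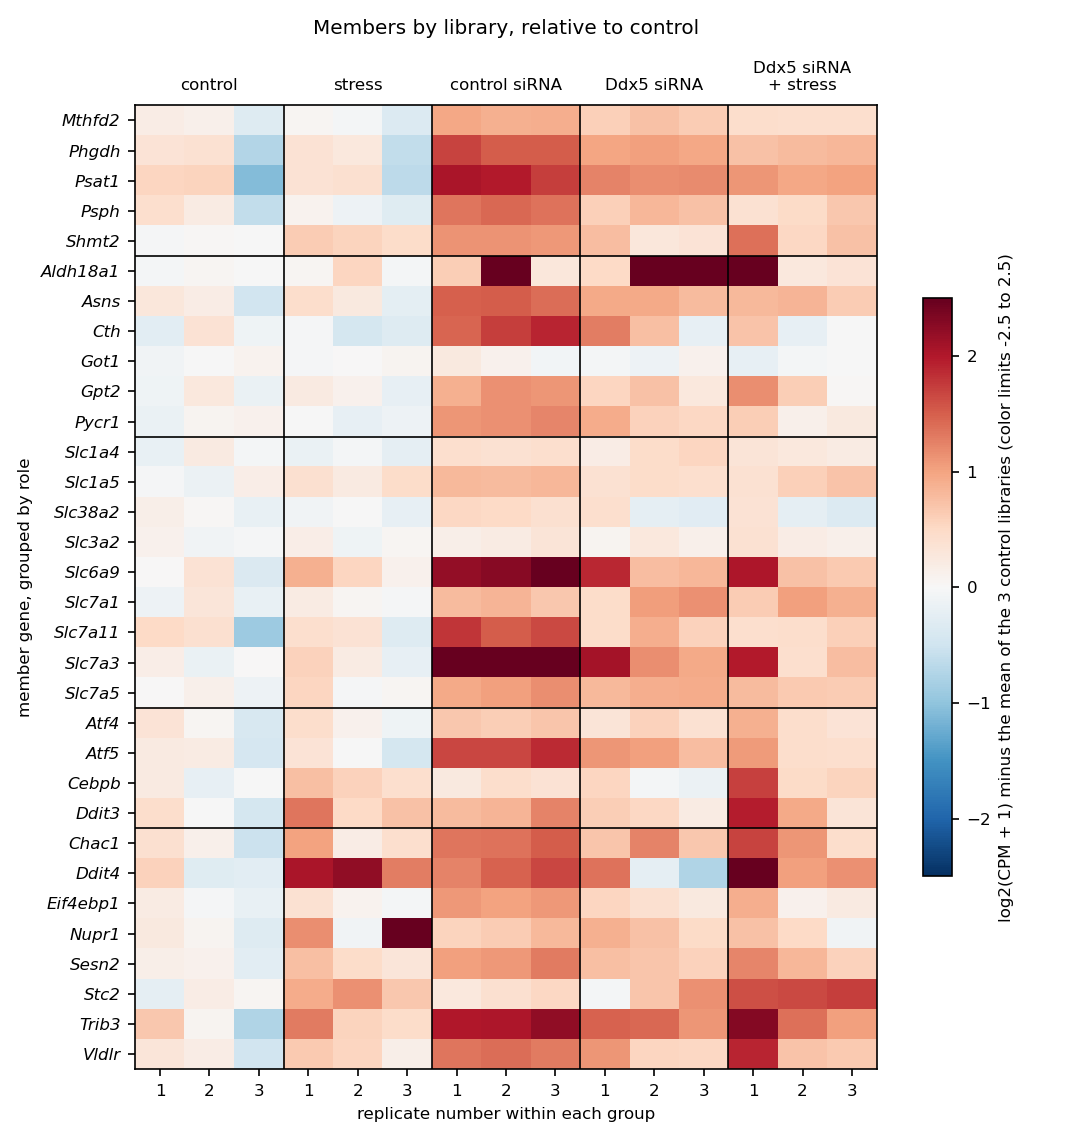
Heat map of the 32 tested members (rows, grouped by role) in the 15 libraries (columns, by group and replicate number), as log2(CPM + 1) minus the mean of the 3 control libraries, with values beyond the ends of the color scale drawn at its ends. The control siRNA columns are red for nearly all members, the Ddx5 siRNA columns are paler, and the stress columns without siRNA are close to white except for some stress effectors.

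Per kilobase of gene length, using the FPKM values the authors deposited, the most abundant member in the control was Atf4, at 213 ± 53.1 FPKM (SD, n = 3). Slc3a2, the heavy chain that carries several amino acid transporters to the membrane, followed at 148 ± 10.1 FPKM, and Atf5, a close relative of Atf4, at 143 ± 33.2 FPKM. Atf4 exceeded Slc3a2 by more than either SD, whereas Slc3a2 and Atf5 differed by less than the SD of Atf5. The enzymes Phgdh, Asns and Mthfd2 lay between 29.9 and 35.6 FPKM, again without a difference beyond their spread. At the low end were Slc7a11, the cystine and glutamate exchanger, at 0.51 ± 0.27 FPKM, Slc7a3, a carrier of cationic amino acids, at 0.40 ± 0.082 FPKM, and Aldh18a1, the first enzyme of proline synthesis, at 0.29 ± 0.023 FPKM. The low members rest on few reads, with 16 or 17 counts of Aldh18a1 in each control library.

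The comparison of control siRNA with control sets cells given an siRNA without the intended target beside cells taken to have had none. It held most of the calls among the members. What else the control cells received is not in the labels. An effect of the siRNA therefore cannot be told apart from one of its delivery, or of other handling that differed between the groups. Of 32 tested members, 21 rose and 0 fell, while 2.10% of all tested genes rose. Each of the 32 had a positive log2 fold change (median 1.17, against −0.003 over all genes). In 31 of them the 3 control siRNA libraries all lay above the 3 control libraries, against 16.0% of all genes, and Got1, which makes aspartate and oxaloacetate interconvert, was the exception. Genes were called with edgeR's quasi-likelihood test at a Benjamini-Hochberg adjusted p under 0.05 over all 14147 genes.

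All 5 enzymes of serine synthesis and mitochondrial one-carbon metabolism rose. Phgdh, which opens the serine pathway, measured 77.6, 80.2 and 36.6 CPM in the control and 201, 176 and 176 CPM with the control siRNA (log2 fold change of 1.51, SE 0.27, edgeR adjusted p = 0.011). Psat1, the transaminase that follows, measured 42.5, 43.4 and 13.2 CPM in the control and 122, 117 and 98.6 CPM with the control siRNA (1.77, SE 0.37, edgeR adjusted p = 0.026). In both genes control replicate 3 was the lowest library, yet the groups did not overlap. Psph, the phosphatase that releases serine, measured 27.2, 23.4 and 12.9 CPM in the control and 52.9, 56.2 and 53.2 CPM with the control siRNA (1.35, SE 0.20, edgeR adjusted p = 0.0024). Shmt2, which splits serine into glycine and a folate-bound carbon in mitochondria, had 84.3, 88.0 and 85.3 CPM in the control and 187, 188 and 184 CPM with the control siRNA (1.12, SE 0.18, edgeR adjusted p = 0.0037). Mthfd2, which oxidizes that carbon unit, had 69.7, 67.4 and 49.0 CPM against 120.3, 114 and 116 CPM (0.92, SE 0.12, edgeR adjusted p = 0.0011). The spread of Shmt2 within a group was small, at 1.92 CPM (SD, n = 3) in the control, whereas Phgdh and Psat1 had SDs of 24.4 and 17.2 CPM.

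Of the 6 tested enzymes for other amino acids, 4 rose. Asns, asparagine synthetase and a classical ATF4 target, measured 79.8, 74.5 and 46.9 CPM in the control and 186, 189 and 174 CPM with the control siRNA, a 2.73-fold rise (log2 1.45, SE 0.18, edgeR adjusted p = 0.00090). Pycr1, which completes proline synthesis in mitochondria, measured 16.0, 19.1 and 19.5 CPM against 40.3, 41.3 and 43.5 CPM (1.20, SE 0.15, edgeR adjusted p = 0.00090). Cth, which makes cysteine from cystathionine, rose by 1.93 (SE 0.39, edgeR adjusted p = 0.014), and Gpt2, the mitochondrial alanine transaminase, by 1.11 (SE 0.25, edgeR adjusted p = 0.024). Got1 was not called, at 71.9, 76.4 and 81.9 CPM against 91.0, 82.7 and 73.3 CPM (0.10, SE 0.098, edgeR adjusted p = 0.60), the smallest difference of any member. Aldh18a1 had a log2 fold change of 3.04 with an SE of 1.496 (edgeR adjusted p = 0.28), since 1 control siRNA library held 22.0 CPM and the others 2.09 and 1.46 CPM.

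Among the 9 transporters 6 rose. Slc7a3 had the largest fold of any member: it measured 1.48, 0.97 and 1.26 CPM in the control and 12.5, 14.01 and 12.4 CPM with the control siRNA (log2 fold change of 3.38, SE 0.51, edgeR adjusted p = 0.0029). Slc7a5, the carrier of large neutral amino acids such as leucine, measured 161, 173 and 145 CPM against 307, 325 and 358 CPM (1.05, SE 0.13, edgeR adjusted p = 0.00090). Slc7a11 measured 6.17, 5.78 and 1.74 CPM against 16.5, 13.5 and 14.96 CPM (1.72, SE 0.35, edgeR adjusted p = 0.016). These 3 carriers thus started from levels that differ widely and all stood higher in each control siRNA library. Slc1a5, a glutamine and neutral amino acid carrier, measured 46.1, 42.1 and 52.7 CPM against 82.2, 81.1 and 83.8 CPM (0.81, SE 0.11, edgeR adjusted p = 0.00090). The glycine carrier Slc6a9 rose by 2.44 (SE 0.43, edgeR adjusted p = 0.012) and Slc7a1, a carrier of arginine and lysine, by 0.78 (SE 0.17, edgeR adjusted p = 0.024). The other 3 did not pass, with log2 fold changes of 0.39 for Slc1a4 (edgeR adjusted p = 0.064), 0.47 for the small neutral amino acid carrier Slc38a2 (0.19) and 0.22 for Slc3a2 (0.24).

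Of the 4 transcription factors only Atf5 was called. It measured 169.9, 166 and 108 CPM in the control and 463, 466 and 533 CPM with the control siRNA (log2 fold change of 1.72, SE 0.23, edgeR adjusted p = 0.0014). Atf4 measured 377, 306 and 225 CPM against 474, 457 and 479.6 CPM, groups that did not overlap but did not pass the test (0.63, SE 0.18, edgeR adjusted p = 0.070). Ddit3, the proapoptotic factor CHOP, measured 55.0, 39.6 and 29.4 CPM against 70.3, 72.9 and 95.7 CPM and did not pass either (0.95, SE 0.39, edgeR adjusted p = 0.20). Cebpb, a partner of ATF4 at composite elements, stood at 0.35 (SE 0.29, edgeR adjusted p = 0.53). Leaving out single libraries gave Atf4 edgeR adjusted p-values between 0.049, without control replicate 1, and 0.24, without control replicate 3, and DESeq2 called it (DESeq2 adjusted p = 0.017).

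Among the 8 stress effectors 5 rose. Trib3, a pseudokinase that feeds back on ATF4, measured 42.2, 27.5 and 15.2 CPM in the control and 108, 109 and 125 CPM with the control siRNA (log2 fold change of 2.01, SE 0.40, edgeR adjusted p = 0.020). Chac1, which degrades glutathione, measured 28.5, 23.5 and 14.5 CPM against 55.8, 55.9 and 62.6 CPM (1.39, SE 0.33, edgeR adjusted p = 0.039). Sesn2, a leucine-sensing inhibitor of mTORC1, measured 99.4, 97.6 and 75.2 CPM against 185, 191 and 223 CPM (1.14, SE 0.16, edgeR adjusted p = 0.0015). In Trib3, Chac1 and Sesn2 alike the lowest control siRNA library exceeded the highest control library. Eif4ebp1, a repressor of cap-dependent translation, rose by 1.06 (SE 0.18, edgeR adjusted p = 0.0061) and the lipoprotein receptor Vldlr by 1.33 (SE 0.33, edgeR adjusted p = 0.045). Ddit4, the mTORC1 inhibitor REDD1, measured 30.9, 16.4 and 16.9 CPM against 49.8, 58.8 and 67.9 CPM without passing (1.46, SE 0.82, edgeR adjusted p = 0.35). Nupr1, a small stress-induced chromatin protein, and Stc2, a secreted glycoprotein, did not pass, at 1.56 (SE 1.09) and 0.41 (SE 0.23).

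The calls differed in how far they rested on single libraries. Without any 1 of the 6 libraries, 13 to 19 members were called, with the low of 13 when control siRNA replicate 3 was left out. Over all genes 166 to 392 were called in these fits, higher or lower. Phgdh, Psph, Shmt2, Mthfd2, Asns, Pycr1, Slc7a3, Slc7a5, Slc1a5, Atf5, Sesn2 and Eif4ebp1 stayed called throughout, which makes 12 of 21. The call of Chac1 was lost whichever library was left out (edgeR adjusted p 0.064 to 0.14), as was that of Vldlr (0.083 to 0.16). Trib3 kept its call only without control replicate 1, Slc7a1 and Gpt2 only without control replicate 2, and Psat1 only without control replicate 2 or 3. Cth lost its call without control replicate 1 or 3 or control siRNA replicate 2 or 3, Slc6a9 without control replicate 1 or 3, and Slc7a11 without control siRNA replicate 1 or 3. With replicate 3 of the control and of the stress group both left out, a choice made after seeing the data, 14 members rose, beside 90 of 14433 genes. Some markers of cell types differed in the same comparison. Of 10 fibroblast genes 2 rose and 8 had positive values (range −0.91 to 1.24), with Col1a1, the main collagen of bone and fibrous tissue, higher by 0.91 (SE 0.20, edgeR adjusted p = 0.022) and Fap, a surface protease, by 0.62 (SE 0.14, edgeR adjusted p = 0.025). Their summed level was 39062 to 44475 CPM in the control and 72622 to 87479 CPM with the control siRNA, none was at 0, and most of the sum was Col1a1, at 29892 to 36680 and 56599 to 72842 CPM. The Schwann cell and neuron list summed to 36.8 to 50.8 CPM against 56.5 to 70.7 CPM, with Sox10 and Rbfox3 at 0 in both groups, and Tubb3, a neuronal tubulin, rose by 0.84 (SE 0.17, edgeR adjusted p = 0.014). Prg4, the lubricin of joint surfaces, fell by 1.91 (SE 0.49, edgeR adjusted p = 0.043), and Myh1, a muscle myosin, fell by 0.86 (SE 0.16, edgeR adjusted p = 0.0083). Prg4 was the only call among 9 tested cartilage markers, of which 2 had positive values (range −1.91 to 0.95). The 15 cartilage markers summed to 1727 to 2217 CPM in the control and 2320 to 2740 CPM with the control siRNA. Myh1 was the only call among 5 tested muscle genes, of which 3 had positive values (median 0.27). The part of these genes in the members' result was not tested.

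**Figure D2:**
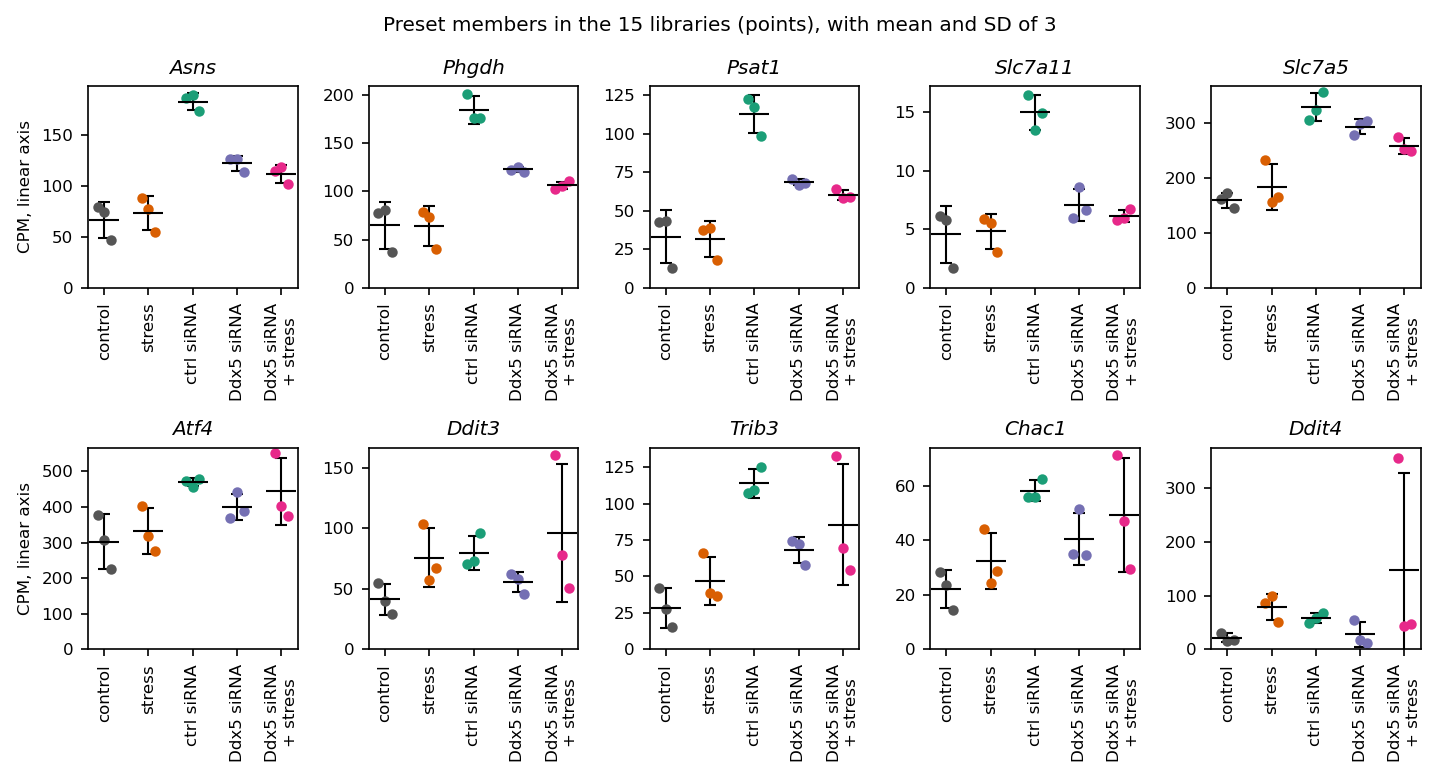
CPM of 10 members (1 panel each, linear axes from 0) in the 15 libraries by group, with points for libraries and bars for the mean and SD of 3. In all 10 panels the 3 control siRNA points lie above the 3 control points, and in Ddit4 a single library with Ddx5 siRNA and stress reaches 357 CPM.

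Other genes of the same pathway were read from lists that were also written with earlier results of these data known. A list of 23 genes held 20 cytosolic tRNA synthetases, which charge tRNAs with amino acids and include many ATF4 targets, and the complex partners Aimp1, Aimp2 and Eef1e1. Of the 23, 13 rose with the control siRNA, all of them synthetases, and 0 fell (median log2 fold change 0.56). Yars, the tyrosine enzyme, rose by 1.03 (SE 0.092, edgeR adjusted p = 0.00016), and Eprs, the enzyme for glutamate and proline, rose by 0.88 (SE 0.090, edgeR adjusted p = 0.00046). Of 24 other targets of the integrated stress response 7 rose, of which Wars, Aars and Nars are synthetases that both lists hold, and the largest was Adm2, a peptide hormone of the adrenomedullin family, at 3.27 (SE 0.50, edgeR adjusted p = 0.0031). Of 32 other enzymes of amino acid metabolism, Aldh1l2, a mitochondrial folate enzyme, rose by 1.71 (SE 0.29, edgeR adjusted p = 0.0074). Pycrl, a further proline enzyme, rose by 0.41 (SE 0.10), and Oat, the ornithine aminotransferase, fell by 0.59 (SE 0.10, edgeR adjusted p = 0.0057). Among 23 other transporters only Slc7a7, which exports cationic amino acids, was called, at 0.94 (SE 0.21, edgeR adjusted p = 0.025).

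Lists on other arms of the response behaved differently in their counts, and none of these differences between lists was tested. Of 21 chaperones and targets of Xbp1 and Atf6, which answer protein misfolding in the ER, 0 rose and 2 fell, namely Dnajb9 by 0.76 (SE 0.18, edgeR adjusted p = 0.034) and Creld2 by 0.61 (SE 0.15, edgeR adjusted p = 0.039), and the median was −0.23. Among 19 kinases, eIF2 and eIF2B subunits and regulators, Eif2b2 and Eif2b3, subunits of the exchange factor that recycles eIF2, rose by 0.54 (SE 0.083) and 0.61 (SE 0.10), and Impact, an inhibitor of the amino acid sensor kinase, fell by 0.50 (SE 0.12, edgeR adjusted p = 0.035). The kinase genes Eif2ak3 (PERK) and Eif2ak4 (GCN2) had log2 fold changes of −0.25 and −0.08 and were not called. By edgeR 0 of 20 genes of amino acid sensing and mTORC1 were called (3 at an unadjusted p under 0.05, median −0.01), and 0 of 31 rows of glycolysis and hypoxia genes (4 at an unadjusted p under 0.05, median 0.28).

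**Figure D3:**
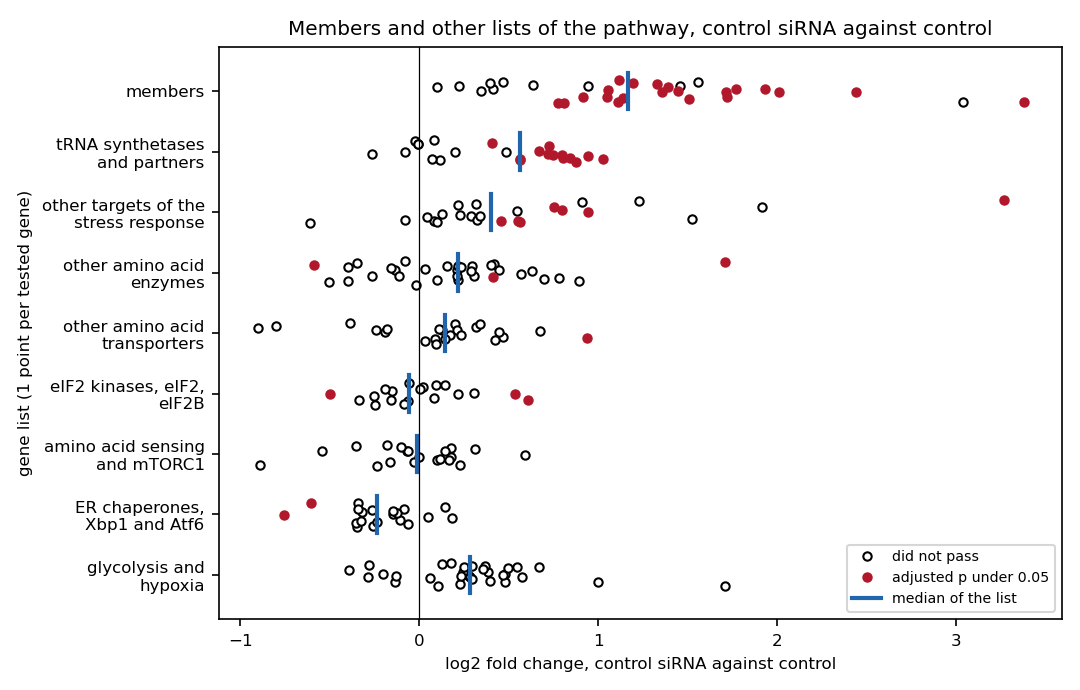
Log2 fold change of control siRNA against control (horizontal axis) for each tested gene (1 point) of the members and of 8 other lists (vertical axis), with filled points for an adjusted p under 0.05 over all genes and a bar for the list's median. The members have a median of 1.17, the tRNA synthetases with their partners 0.56 and the ER chaperones −0.23; the lists share some genes.

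The Ddx5 siRNA was compared with the control siRNA to ask what loss of Ddx5 adds to an siRNA. By edgeR 0 of 32 members were called, in a comparison where 0.233% of all genes rose and 0.163% fell. At an unadjusted p under 0.05 there were 16 members and 2191 genes. DESeq2 called 5 members lower (Atf5, Eif4ebp1, Slc1a5, Shmt2 and Psph), beside 164 of 21649 genes. In level, however, 28 of 32 members had a negative log2 fold change (median −0.52, against 0.007 over all genes), and in 22 the 3 Ddx5 siRNA libraries lay below the 3 control siRNA libraries, against 13.2% of all genes. The serine genes showed this in each of 5 cases. Phgdh had 122, 125 and 120.4 CPM with the Ddx5 siRNA, below its 176 to 201 CPM with the control siRNA (−0.59, SE 0.27, edgeR adjusted p = 0.31). Psat1 had 70.6, 66.7 and 67.8 CPM, below 98.6 to 122 CPM (−0.72, SE 0.36, edgeR adjusted p = 0.37). Asns had 126, 127 and 114 CPM, below 174 to 189 CPM (−0.58, SE 0.18, edgeR adjusted p = 0.15). In these 3 enzymes the Ddx5 siRNA libraries lay between the control and the control siRNA libraries with no overlap on either side.

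The carriers were more mixed. Slc7a3 had the most negative log2 fold change, with 8.46, 3.97 and 3.31 CPM against 12.4 to 14.01 CPM (−1.31, SE 0.45, edgeR adjusted p = 0.19). Slc7a11 had 6.01, 8.63 and 6.62 CPM against 13.5 to 16.5 CPM (−1.08, SE 0.34, edgeR adjusted p = 0.17). Slc7a5 had 279, 299 and 304 CPM against 307 to 358 CPM (−0.17, SE 0.13, edgeR adjusted p = 0.57). In all 3 carriers the groups did not overlap. Slc7a1 was among the 4 members with a positive value (0.14, SE 0.17). The largest positive value, 1.07, belonged to Aldh18a1 with an SE of 1.28 (edgeR adjusted p = 0.73), whose counts ran from 28 to 644 within the Ddx5 siRNA group.

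The regulators and effectors likewise did not pass. Atf4 had 370.2, 441 and 388 CPM with the Ddx5 siRNA against 457 to 479.6 CPM (log2 fold change of −0.23, SE 0.18, edgeR adjusted p = 0.57), and Ddit3 had 62.2, 58.0 and 46.1 CPM against 70.3 to 95.7 CPM (−0.52, SE 0.38, edgeR adjusted p = 0.55). Trib3 had 74.0, 72.4 and 57.6 CPM against 108 to 125 CPM (−0.75, SE 0.38, edgeR adjusted p = 0.38). Chac1 had 35.1, 51.6 and 34.6 CPM against 55.8 to 62.6 CPM (−0.52, SE 0.32, edgeR adjusted p = 0.47). In these 4 members the groups did not overlap. Ddit4 did overlap, with 53.9, 17.4 and 11.8 CPM against 49.8 to 67.9 CPM (−1.09, SE 0.81, edgeR adjusted p = 0.56), because replicate 1 of the Ddx5 siRNA group was high.

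The count of calls moved with the libraries and with the fit. Without replicate 1 of the Ddx5 siRNA group 5 members fell (Shmt2, Slc38a2, Pycr1, Cth and Slc7a3), against 2.03% of all genes. With replicate 1 of both Ddx5 siRNA groups left out, a choice made after seeing the data, 13 members fell and Stc2 rose (log2 fold change of 0.55, SE 0.16, edgeR adjusted p = 0.037), against 7.02% of all genes that fell. The 13 were led by Shmt2, which fell by 0.80 (SE 0.090, edgeR adjusted p = 5.9e-05), Slc38a2, which fell by 0.73 (SE 0.10, edgeR adjusted p = 0.00038), and Slc6a9, which fell by 1.62 (SE 0.24, edgeR adjusted p = 0.00088), and they also held Slc7a3, Eif4ebp1, Pycr1, Cth, Ddit4, Vldlr, Cebpb, Slc1a5, Sesn2 and Atf5. With all libraries kept, a fit of only the groups compared called 6 members lower (Psat1, Psph, Asns, Phgdh, Eif4ebp1 and Atf5), beside 20 of 13353 genes. The replicate block over 15 libraries called 6 lower (Eif4ebp1, Asns, Atf5, Slc7a3, Shmt2 and Slc1a5), beside 236 of 14147 genes. With the block and only the groups compared, 0 members and 0 of 13353 genes were called. Replicate numbers did not pair these 2 groups (correlations of deviations −0.25 to 0.03). Of the list of tRNA synthetases and partners, Yars and Sars, the serine enzyme, fell with all libraries present, by 0.51 (SE 0.092, edgeR adjusted p = 0.037) and 0.53 (SE 0.11, edgeR adjusted p = 0.044), and 21 of 23 had a negative value. Among the cell type markers Myh1 rose by 1.14 (SE 0.16, edgeR adjusted p = 0.018), with 3 of 5 muscle genes positive. Of 9 cartilage markers 0 were called and 6 were positive. The part of these markers in the members' values was not tested.

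**Figure D4:**
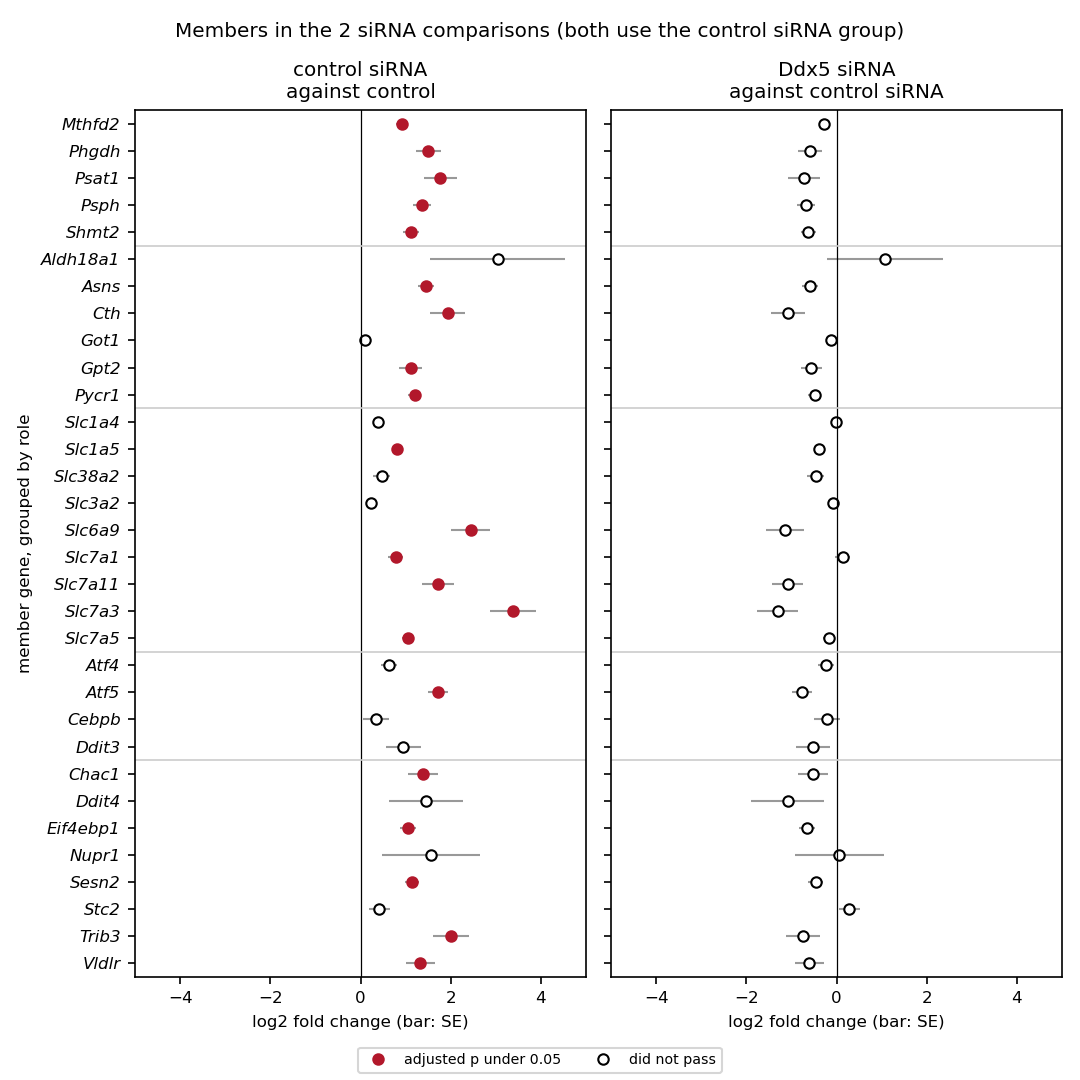
Log2 fold change with SE (horizontal axes) of each tested member (rows, grouped by role) for control siRNA against control (left) and Ddx5 siRNA against control siRNA (right), with filled points for an adjusted p under 0.05 over all genes. The left panel has 21 filled points, all to the right of 0, and the right panel has 0; both panels use the control siRNA libraries, so opposite signs are partly built in.

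Against the control without siRNA, the Ddx5 siRNA group was higher in 30 of 32 members (median log2 fold change 0.69), and 20 did not overlap, against 7.05% of all genes. Only Slc7a5 was called, rising from 159.8 ± 14.1 CPM to between 279 and 304 CPM (0.88, SE 0.13, edgeR adjusted p = 0.028), where 0.0141% of all genes rose. Its call was lost in 5 of 6 fits without 1 library, all but the one without Ddx5 siRNA replicate 1 (edgeR adjusted p = 0.036). Asns, at 0.87 (SE 0.18, edgeR adjusted p = 0.10), and Mthfd2, at 0.65 (SE 0.12, edgeR adjusted p = 0.075), did not pass. At an unadjusted p under 0.05 there were 24 members and 1327 of 14147 genes. DESeq2 called 11 members higher, beside 98 of 21649 genes. This comparison shares its libraries with the others and adds no independent measurement.

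Mechanical stress was compared with the control to ask how loading alters these cells. By edgeR over 15 libraries 0 of 32 members were called, while 1.06% of all genes rose. At an unadjusted p under 0.05 there were 7 members and 2135 genes. DESeq2 called Nupr1, Stc2 and Slc1a5 higher, beside 371 of 21649 genes. The median member was at 0.14 on the log2 scale, with 23 of 32 positive. Leaving out single libraries moved this median from 0.0085 with 17 positive, without stress replicate 1, to 0.30 with 25 positive, without control replicate 1; it also moved to 0.065 and 0.24 (control replicates 3 and 2 left out) and 0.29 (stress replicate 3 left out). The 8 stress effectors all had positive values (median 0.64), whereas of the 5 serine and one-carbon enzymes only Shmt2 did. In 7 members the stress libraries lay above the control libraries, against 11.2% of all genes, and these were Shmt2, Slc1a5, Cebpb, Ddit3, Ddit4, Sesn2 and Stc2.

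Stc2 came closest to a call, with 13.9, 18.6 and 16.9 CPM in the control and 31.8, 37.6 and 26.7 CPM under stress (log2 fold change of 0.96, SE 0.23, edgeR adjusted p = 0.055). Ddit4 had 30.9, 16.4 and 16.9 CPM against 87.1, 99.1 and 51.4 CPM (1.89, SE 0.83, edgeR adjusted p = 0.32). Ddit3 had 55.0, 39.6 and 29.4 CPM against 103, 57.1 and 66.8 CPM (0.87, SE 0.39, edgeR adjusted p = 0.32). In each of the 3 the lowest stressed library exceeded the highest control library, narrowly so in Ddit3. The largest value belonged to Nupr1, at 3.83 (SE 1.07, edgeR adjusted p = 0.11), and it rested on stress replicate 3, with 15.3 CPM against 2.13 and 0.31 CPM in the other stress libraries.

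Most amino acid enzymes and carriers gave values near 0. Phgdh had 78.4, 73.8 and 39.9 CPM under stress (log2 fold change of −0.02, SE 0.27), Psat1 37.6, 39.0 and 18.3 CPM (−0.06, SE 0.37) and Asns 88.3, 77.2 and 54.8 CPM (0.13, SE 0.18). The low library was again replicate 3, as in the control. Slc7a11 had 5.85, 5.54 and 3.09 CPM (0.08, SE 0.35), and Slc7a5 had 233, 156 and 165 CPM (0.21, SE 0.13). Atf4 had 404, 319 and 277 CPM (0.14, SE 0.18), Trib3 had 66.1, 38.8 and 36.3 CPM (0.73, SE 0.39) and Chac1 had 44.0, 24.4 and 28.8 CPM (0.55, SE 0.33). All 8 of these members overlapped the control, and their edgeR adjusted p-values lay between 0.41 and 0.99. Cth had the most negative value, −0.36 (SE 0.40, edgeR adjusted p = 0.72).

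Libraries with the same replicate number deviated together in these 2 groups, so that the fits with the replicate number as a block bear on this comparison. With the block in a fit of all 15 libraries, Stc2 rose (log2 fold change of 0.97, SE 0.21, edgeR adjusted p = 0.026), beside 1.87% of all genes. With the block and only the 6 libraries compared, 10 members rose and 0 fell, beside 7.00% of all genes that rose: Stc2, Shmt2, Cebpb, Ddit3, Sesn2, Trib3, Vldlr, Slc1a5, Slc6a9 and Ddit4. In that fit Stc2 rose by 0.95 (SE 0.12, edgeR adjusted p = 0.00015), Ddit3 by 0.87 (SE 0.12, edgeR adjusted p = 0.00058), Trib3 by 0.78 (SE 0.13, edgeR adjusted p = 0.0041) and Ddit4 by 1.88 (SE 0.28, edgeR adjusted p = 0.042). Phgdh, Psat1, Psph, Asns and Atf4 were not called in it either. Beside them, 9 of 31 rows of the glycolysis and hypoxia list, which holds targets of the low-oxygen factor HIF, were called higher in the fit without the block, with Kdm3a at 1.14 (SE 0.16, edgeR adjusted p = 0.0019), and Ass1, an enzyme of arginine synthesis outside the list of members, rose by 2.89 (SE 0.35, edgeR adjusted p = 0.00062). Sox9, a transcription factor that defines chondrocytes, fell by 0.92 (SE 0.21, edgeR adjusted p = 0.049), and Myh1 fell by 0.81 (SE 0.16, edgeR adjusted p = 0.017). Each was the only call of its list. Of 9 tested cartilage markers 4 had positive values (median −0.09), as had 3 of 5 muscle genes (median 0.23). The part of these genes in the members' values was not tested.

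In cells with the Ddx5 siRNA, stress was compared with no stress, in 6 libraries that the previous comparison did not use. By edgeR 1 of 32 members was called, and 1.05% of all genes rose. Stc2 rose from 15.7, 27.2 and 37.2 CPM to 52.4, 53.6 and 56.2 CPM (log2 fold change of 1.02, SE 0.23, edgeR adjusted p = 0.043). It was the only member whose groups did not overlap upward, against 8.72% of all genes, and its call was lost in 5 of 6 fits without 1 library, all but the one without Ddx5 siRNA replicate 3 (edgeR adjusted p 0.010 to 0.17 over the 6). Replicate numbers paired these groups too, and with the block and only these 6 libraries Shmt2 rose by 0.41 (SE 0.073, edgeR adjusted p = 0.0050) and Cebpb by 0.80 (SE 0.13, edgeR adjusted p = 0.031), beside 4.75% of all genes, whereas Stc2 was not called. The phosphatase subunit gene Ppp1r15a (GADD34), which reverses eIF2 phosphorylation and is no member, rose by 1.18 (SE 0.23, edgeR adjusted p = 0.025). Sox9 fell by 0.94 (SE 0.21, edgeR adjusted p = 0.045) and Myh1 by 0.83 (SE 0.16, edgeR adjusted p = 0.014), and their part in the members' values was not tested. Each was again the only call of its list, in which 4 of 9 cartilage markers and 2 of 5 muscle genes had positive values.

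In 4 members the stressed libraries lay below the unstressed ones without overlap, against 6.54% of all genes: Mthfd2, Phgdh, Psat1 and Slc7a5, none of which was called. Mthfd2 was at −0.23 (SE 0.12, edgeR adjusted p = 0.52). Phgdh had 103, 106 and 110.2 CPM (log2 fold change of −0.21, SE 0.27), Psat1 had 63.8, 57.9 and 59.2 CPM (−0.18, SE 0.36) and Slc7a5 had 276, 253 and 249.6 CPM (−0.18, SE 0.13). Asns had 115, 119 and 102 CPM (−0.13, SE 0.18), and Slc7a11 had 5.80, 5.97 and 6.76 CPM (−0.20, SE 0.35). These differences were smaller than their SE in all but Slc7a5 and Mthfd2. Atf4 had 551, 404 and 376 CPM (0.15, SE 0.18), Trib3 had 133, 69.6 and 54.2 CPM (0.33, SE 0.38), Chac1 had 71.2, 47.2 and 29.5 CPM (0.29, SE 0.32) and Ddit3 had 160.1, 77.9 and 50.4 CPM (0.79, SE 0.38, edgeR adjusted p = 0.48). In all 4 replicate 1 was the highest library and the groups overlapped. Ddit4 was at 2.43 (SE 0.83, edgeR adjusted p = 0.27), going from 53.9 to 357, from 17.4 to 43.1 and from 11.8 to 46.4 CPM in the 3 numbered pairs, so that each pair was higher under stress. Its value was 0.69 without replicate 1 of the stressed group, and 1.61 without replicate 1 of both groups. The most negative value was that of Aldh18a1, −1.08 (SE 1.28, edgeR adjusted p = 0.86).

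No difference between the stress effects with and without the Ddx5 siRNA was called among the members (0 of 32 by edgeR and 0 by DESeq2, with 2 members and 441 genes at an unadjusted p under 0.05). The estimates for Stc2, 0.96 without and 1.02 with the siRNA, differed by 0.06 (SE 0.32), and those for Ddit4, 1.89 and 2.43, by 0.54 (SE 1.14). Nupr1 had the largest difference, −4.40 (SE 1.46, edgeR adjusted p = 0.999), which again rested on the single stress library.

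**Figure D5:**
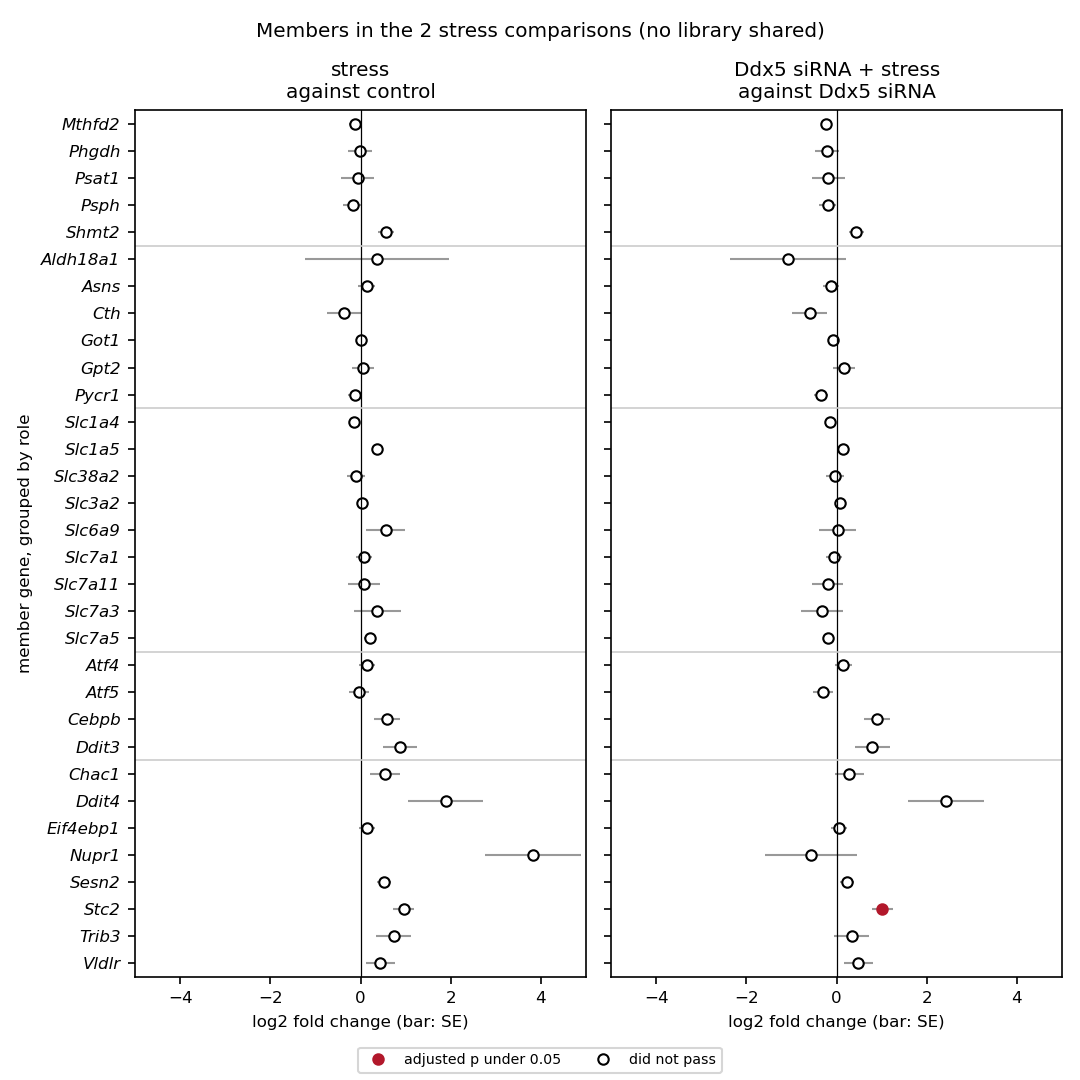
Log2 fold change with SE (horizontal axes) of each tested member (rows, grouped by role) for stress against control (left) and for Ddx5 siRNA with stress against Ddx5 siRNA (right), with filled points for an adjusted p under 0.05 over all genes in the fit without a replicate block. Most enzymes and carriers lie near 0 in both panels, Ddit4 lies at 1.89 and 2.43, and Stc2 is the 1 filled point, at 1.02.

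Under stress, cells with the Ddx5 siRNA were compared with cells that had no siRNA, so that the effect of Ddx5 and that of receiving an siRNA cannot be told apart here. By edgeR 0 of 32 members were called, in a comparison where 0.00707% of all genes rose. At an unadjusted p under 0.05 there were 19 members and 1643 genes. DESeq2 called Slc7a1, Mthfd2 and Slc7a5 higher, beside 81 of 21649 genes. In level, 30 of 32 members were positive (median log2 fold change 0.57, against 0.03 over all genes), and 11 lay above the stress libraries without overlap, against 7.56% of all genes. Without replicate 1 of the Ddx5 siRNA and stress group the median was 0.27, with 26 positive. All 5 serine and one-carbon enzymes were positive, with Psat1 at 0.93 (SE 0.37, edgeR adjusted p = 0.37), Phgdh at 0.73 (SE 0.27, edgeR adjusted p = 0.33) and Mthfd2 at 0.54 (SE 0.12, edgeR adjusted p = 0.13). Asns was at 0.61 (SE 0.18, edgeR adjusted p = 0.25), Slc7a5 at 0.49 (SE 0.13, edgeR adjusted p = 0.19), Slc7a11 at 0.36 (SE 0.35) and Atf4 at 0.41 (SE 0.18, edgeR adjusted p = 0.41). Among the effectors, Trib3 was at 0.86 (SE 0.39), Chac1 at 0.61 (SE 0.33), Ddit4 at 0.91 (SE 0.79) and Ddit3 at 0.34 (SE 0.38), each with overlapping groups. The extremes were Aldh18a1 at 2.65 (SE 1.45, edgeR adjusted p = 0.51) and Nupr1 at −2.77 (SE 0.99, edgeR adjusted p = 0.33), and each rested on 1 library. With replicate 1 of both Ddx5 siRNA groups left out, Slc7a1 rose by 0.88 (SE 0.13, edgeR adjusted p = 0.0074) and Stc2 by 0.78 (SE 0.16, edgeR adjusted p = 0.038), where 94 of 14346 genes rose. Without stress replicate 1 Slc7a5 rose by 0.69 (SE 0.11, edgeR adjusted p = 0.048), where 1 of 14419 genes rose.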

How the data were processed

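Total RNA from 15 libraries of primary rat TMJ chondrocytes, extracted with Trizol per the labels' protocols, was analysed. The authors deposited a table of raw counts for each library and gene, and FPKM values, which were used only to compare levels between genes and as an alternative scaling. The aligner, counting tool, strand setting and genome build are not named in these sources, so reads shared by overlapping genes or close copies (such as both Nupr1 rows) could not be told apart, and promoter coordinates come from RefSeq (GRCr8). Groups were taken from the sample titles.

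Counts were filtered with filterByExpr, scaled by TMM and fitted over all 15 libraries with 1 term per group (edgeR 4.0.16 in R 4.3.3, quasi-likelihood F test with robust estimation). P-values were adjusted by Benjamini-Hochberg over 14147 genes and called under 0.05; SE is the log2 fold change divided by the square root of F. The script was tested on simulated data. CPM uses TMM-scaled totals. The totals before scaling were 14309005 to 16219775 counts, at which 3 counts are 0.18 to 0.21 CPM. No 2 replicates agreed within sampling noise (chi-square over its degrees of freedom 7.75 to 65.8).

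Members and lists were chosen with earlier results of these data known. Values are given for 10 preset members, members called (the 10 with the lowest adjusted p in full) and the extremes; others were named after their values were seen. Shared replicate numbers were taken to pair libraries where the deviations from group means correlated above 0.1 in 3 of 3 pairs: stress against control (0.35 to 0.47) and stress in Ddx5 siRNA cells (0.31 to 0.65). Alternatives were DESeq2 1.42.0, other size factors, no filter, only the groups compared, the block, another reference group, FPKM and leaving out each library; 2 were added after seeing the data.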

Additional observations from a re-analysis of the deposited data

Results flagged for a closer look

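For 8 members all libraries with the Ddx5 siRNA lay below the control siRNA libraries without stress, whereas under stress all libraries with the Ddx5 siRNA lay above the stress libraries. The difference of the 2 log2 fold changes, with stress minus without, was 0.81 (SE 0.17) for Mthfd2, 1.32 (SE 0.38) for Phgdh, 1.65 (SE 0.52) for Psat1, 1.33 (SE 0.28) for Psph and 1.19 (SE 0.25) for Asns. It was 0.97 (SE 0.21) for Pycr1, 0.66 (SE 0.18) for Slc7a5 and 1.45 (SE 0.31) for Atf5. The test of the difference itself passed for none of the 8 (edgeR adjusted p 0.16 to 0.40 over all genes). DESeq2, however, called 7 of the 8, all but Slc7a5, and the replicate block over 15 libraries called Asns, Atf5 and Mthfd2, while the block with only the groups compared called Asns and Psph. Over all 32 members edgeR called 0 of these differences, with 23 members and 1179 of 14147 genes at an unadjusted p under 0.05. DESeq2 called 11 members and 114 of 21649 genes. The block over 15 libraries called 5 members and 26 of 14147 genes, and the block with only the groups compared 2 members and 11 of 14006 genes. Without replicate 1 of both Ddx5 siRNA groups edgeR called 5 members, of the 8 only Pycr1, and 142 of 14346 genes. The reference groups are not alike, since the unstressed one received a control siRNA and the stressed one no siRNA. By construction the difference is the log2 fold change of control siRNA against control plus the difference of the stress effects. The first term was 0.92 for Mthfd2, 1.51 for Phgdh, 1.77 for Psat1, 1.35 for Psph and 1.45 for Asns. It was 1.20 for Pycr1, 1.05 for Slc7a5 and 1.72 for Atf5. The second had a median of −0.12 over 32 members, with 0 called by edgeR. No group had control siRNA and stress, so the part of the reference groups cannot be told apart from that of stress. With groups of 3 libraries, single libraries that stand apart were not tested as outliers.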

How the results depend on the processing

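No value changed sign among those called, as long as the groups compared stayed the same. With the control without siRNA as reference for the Ddx5 siRNA group, 30 of 32 members were positive, against 4 with the control siRNA. Slc7a5, at −0.17 against the control siRNA, was called higher there. For control siRNA against control, 21 members were called, 19 to 24 under the other settings with all libraries, 14 without replicate 3 of control and stress, and 13 to 19 without 1 library. For stress against control, 0 became 3 with DESeq2, 2 with only the groups compared, 1 and 10 with the replicate block (all 15 libraries; only the groups compared), and 0 to 1 without 1 library, the 1 being Nupr1 without stress replicate 2. For Ddx5 siRNA against control siRNA, 0 became 5 with DESeq2, 6 with only the groups compared, 6 and 0 with the replicate block, 14 without both replicate 1 libraries, 1 against the control without siRNA, and 0 to 5 without 1 library. For Ddx5 siRNA with stress, 0 against stress became 3 with DESeq2, 2 without both replicate 1 libraries and 0 to 1 without 1 library; 1 against Ddx5 siRNA became 2 with DESeq2, 0 with only the groups compared, 2 with the block and those groups, and 0 to 1 without 1 library. By the rule of correlations above 0.1 in 3 of 3 pairs, numbers did not pair the libraries elsewhere (correlations −0.25 to 0.35). Control siRNA against control narrowly missed it (0.086 to 0.13), with 3 libraries closest to the one of their own number. Deposited FPKM gave a median of 1.17 for control siRNA against control. Calls over all genes moved too, for Ddx5 siRNA against control siRNA from 56 genes to between 1 and 645 without 1 library. The cause of these moves was not tested. With 3 libraries per group, small changes of sparse members such as Aldh18a1 and Nupr1 were not detectable.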
